A study of Mus musculus with 6 samples.

Results

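The feedback and target genes of the Wnt pathway, most of them brakes on it, were followed in whole small intestine of C57BL/6 mice at postnatal day 14. They were chosen by symbol (Notum, Apcdd1, Rnf43, Znrf3, Axin2, Nkd1, Tcf7, Lef1, Sp5 and Ccnd1), and all 10 were found among the 24452 gene symbols of each file. RNA-seq of polyA RNA was done on 3 libraries labelled Erk1/2 -/- (named labelled knockout 1 to 3) and on 3 labelled wild type. The series asks what feedback through ERK kinases does in intestine after birth. Values are normalised counts: whole-number read counts per gene that had been put on a common scale between libraries before deposit. No Cre driver, allele or agent is named in the labels, and they do not say how many animals the libraries stand for, so each p-value refers to the spread among 6 libraries, which may be technical. Whole tissue was used, so fewer cells of a type and less RNA per cell cannot be told apart.

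Wnt proteins bind Frizzled and LRP receptors and thereby stop a complex of APC, AXIN and kinases from marking beta-catenin for destruction. Beta-catenin then enters the nucleus, joins DNA-binding TCF and LEF proteins and switches on target genes. In the intestine this signal keeps crypt stem cells dividing. Many targets encode inhibitors that act back on the pathway at the cell surface or in the cytoplasm.

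The libraries did not differ by genotype label alone. Mapk3, which encodes ERK1, had normalised counts of 3363, 2280 and 2734 in labelled knockout 1 to 3 and of 3142, 2788 and 2004 in wild type 1 to 3 (limma adjusted p = 0.819). The groups overlapped and the sign for Mapk3 changed between alternatives, so every direction below is that of the libraries so labelled. These are totals over the gene and hold no exon values. Labelled knockout 1 was poor in long transcripts: the median log2 value of the 1420 longest tested genes, centred over libraries, minus that of the 1420 shortest was -1.04 there and between -0.05 and 0.37 in the other 5 libraries. A segment score, taken as mean log2 over 4 genes of proximal intestine less the mean over 4 genes of ileum, was -1.0 in labelled knockout 1 and -0.44 in wild type 3, against 4.30 to 5.96 in the other 4 libraries. Of 6 listed ileal genes, Fabp6 and Slc10a2 failed the filter on low values and are not in the score. Fabp6 had 1947, 3 and 3 in labelled knockout 1 to 3 and 1, 1 and 4 in wild type 1 to 3. It thus set labelled knockout 1 apart but not wild type 3. Fgf15, which is in the score, was at 390 in labelled knockout 1 and 1975 in wild type 3, against 0 to 13 elsewhere. By Xist and Ddx3y, labelled knockout 2 and 3 and wild type 3 were female and the other 3 libraries male. The 4 libraries of high segment score were thus female labelled knockout 2 and 3 and male wild type 1 and 2. Among those 4, sex and genotype cannot be told apart. Markers of intestinal epithelium were abundant in all libraries, with Vil1, encoding villin, at 22184 to 25060 in labelled knockout and 16362 to 18276 in wild type libraries.

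Promoters of 6 of the 10 genes were in the RefSeq table used (build GRCm38.p6), in 11 windows that run from 250 bases before to 50 after a transcription start. Notum, Apcdd1, Znrf3 and Ccnd1 had no window there, so their promoters were not searched. The windows were searched on both strands for CTTTGAT and CTTTGTT, forms of the site that TCF and LEF proteins bind, and for CCGGAAGT, a form of the site of ETS factors, a family that includes ERK substrates. Of the 11 windows, only that of Sp5 held either TCF and LEF motif, and it held both, at positions -222 (CTTTGTT, on the minus strand) and -104 (CTTTGAT). Among all 32851 windows, 9.33% held at least 1 of these motifs and 0.247% held both. The ETS motif was in 1 of the 11 windows, that of the second listed start of Tcf7, at position -26 on the minus strand of that window, and in 3.89% of all windows. The 250 bases before the starts of Sp5 and Axin2 are shown because the log2 fold changes of these targets had opposite signs, and the last 60 bases before the second listed Tcf7 start because they hold the ETS motif; capitals mark motif matches. Axin2 has no capitals, which says only that these letters are not in this window. Sp5 spans chr2:70474673-70474922 (plus strand), Axin2 chr11:108920099-108920348 (plus strand) and Tcf7 chr11:52282596-52282655 (minus strand).
Sp5: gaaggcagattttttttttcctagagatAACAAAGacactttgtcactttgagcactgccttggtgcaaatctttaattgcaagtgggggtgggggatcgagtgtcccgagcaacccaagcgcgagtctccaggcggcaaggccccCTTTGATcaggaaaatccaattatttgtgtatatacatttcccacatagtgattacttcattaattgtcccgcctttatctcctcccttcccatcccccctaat
Axin2: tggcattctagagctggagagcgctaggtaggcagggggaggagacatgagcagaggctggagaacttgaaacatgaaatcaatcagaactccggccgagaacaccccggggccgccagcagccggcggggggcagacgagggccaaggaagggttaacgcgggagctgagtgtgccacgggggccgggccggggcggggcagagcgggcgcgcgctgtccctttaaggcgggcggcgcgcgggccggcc
Tcf7: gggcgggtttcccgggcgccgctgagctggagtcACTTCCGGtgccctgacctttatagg

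Among the pathway's own targets, Notum, Axin2 and Tcf7 fell in the libraries labelled knockout, and no member rose past the test. All 10 members passed the filter on low values (at least 10 in at least 3 libraries), 3 of 10 were called at an adjusted p under 0.05 in limma fitted over 14686 genes, and 8.79% of all genes tested were called (3.94% lower, 4.85% higher). Over all genes that was 712 higher and 579 lower, a split that became 414 higher and 983 lower with scaling by library totals and 546 higher and 681 lower with upper-quartile scaling. The genotypes did not overlap for 7 members, 5 lower and 2 higher, and for 37.6% of all genes tested (17.8% lower, 19.8% higher). Of the 10 log2 fold changes, 8 were negative, with a median of -0.51 against -0.01 over all genes tested. Sp5 and Ccnd1 had the positive values.

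**Figure D1:**
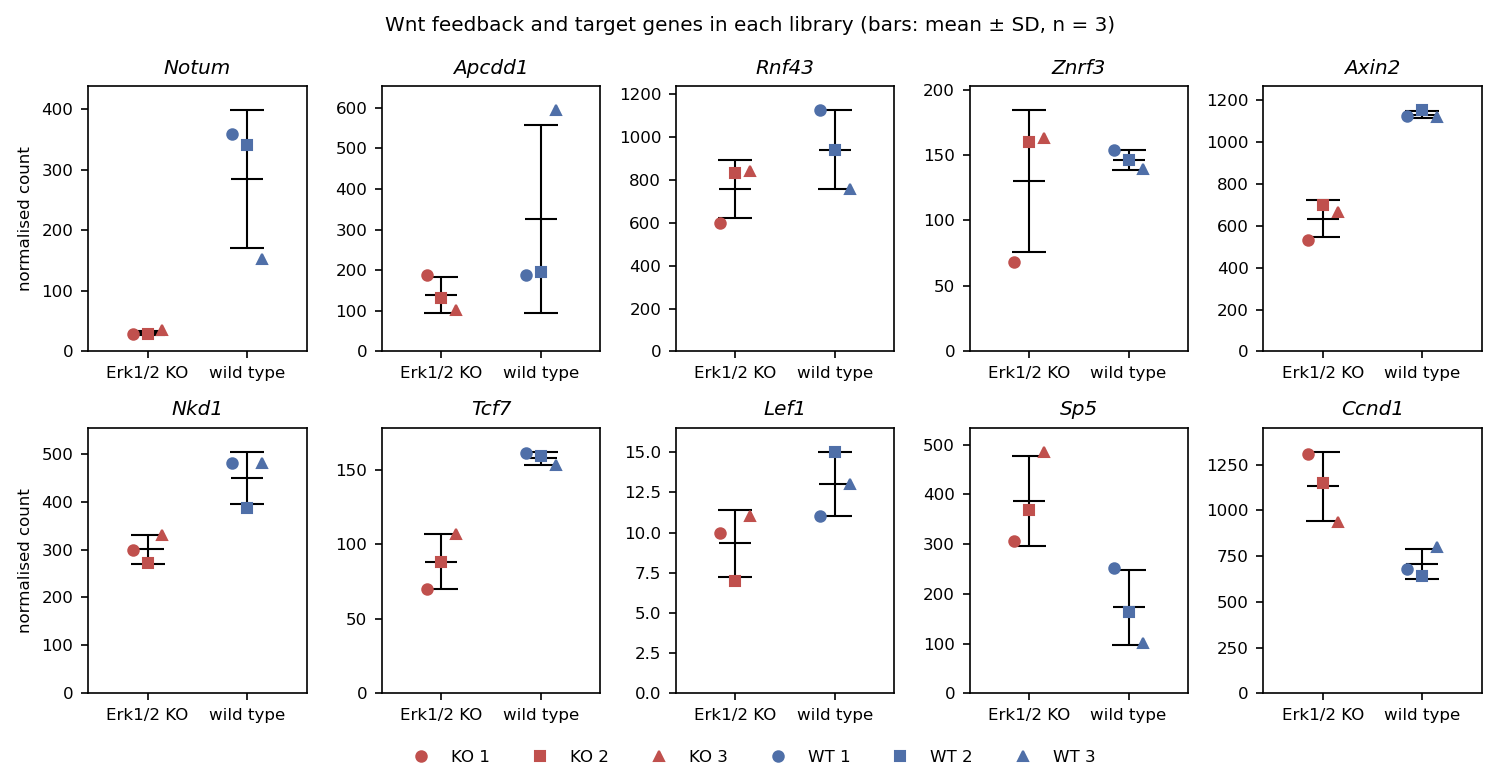
Normalised counts (vertical axes, from 0) of the 10 genes in each library, with labelled knockout libraries at the left (red) and wild type at the right (blue) of each panel; bars give mean ± SD (n = 3 each). Notum lies at 29 to 35 in the labelled knockout libraries and at 153 to 359 in wild type, while Sp5 and Ccnd1 lie higher in every labelled knockout library.

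Among inhibitors that act outside the cell or at its surface, Notum stood out. Notum encodes a secreted enzyme that strips the lipid from Wnt proteins and so inactivates them (chromosome 11, 120653788 to 120661175, minus strand, GRCm38). Its normalised counts were 29, 29 and 35 in labelled knockout 1 to 3 and 359, 341 and 153 in wild type 1 to 3. The labelled knockout libraries were tightly grouped and all far below wild type, and wild type 3 was the lowest of its group. Its mean was 31.0 ± 3.46 in labelled knockout and 284.3 ± 114.1 in wild type libraries (SD, n = 3 each), and the wild type mean was 9.17 times the labelled knockout mean. On the log2 scale the difference was -3.06 ± 0.34 (SE; 95% interval -3.87 to -2.25; limma adjusted p = 0.0108). The call was lost without labelled knockout 3 (-3.15, adjusted p = 0.0577) and without wild type 2 (-2.88, adjusted p = 0.0657).

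Apcdd1 encodes a membrane glycoprotein that binds Wnt and LRP proteins and dampens the signal (chromosome 18, 62922231 to 62961179, plus strand). It had normalised counts of 188, 131 and 101 in labelled knockout 1 to 3 and 189, 196 and 594 in wild type 1 to 3. The groups were apart by a single unit, between labelled knockout 1 and wild type 1, and wild type 3 was far above the other 5 libraries. The log2 fold change of -1.04 ± 0.47 did not pass (95% interval -2.16 to 0.07; limma adjusted p = 0.187). It was -0.50 (adjusted p = 0.325) without wild type 3, and it passed at -0.74 ± 0.18 (adjusted p = 0.0269) when wild type 3 and labelled knockout 1 were both left out.

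Rnf43 and Znrf3 encode related membrane ubiquitin ligases that remove Frizzled receptors from the cell surface. Rnf43 (chromosome 11, 87662722 to 87735539, plus strand) had 599, 831 and 841 in labelled knockout 1 to 3 and 1125, 938 and 757 in wild type 1 to 3. The groups overlapped, since wild type 3 lay below labelled knockout 2 and 3, and the log2 fold change of -0.31 ± 0.21 did not pass (95% interval -0.80 to 0.18; limma adjusted p = 0.350). Znrf3 (chromosome 11, 5276324 to 5444847, minus strand) had 68, 160 and 163 in labelled knockout 1 to 3 and 154, 146 and 139 in wild type 1 to 3. Labelled knockout 1 stood alone below the other 5 libraries, which spanned 139 to 163. The log2 fold change of Znrf3 was -0.27 ± 0.34 (95% interval -1.08 to 0.54; limma adjusted p = 0.626), and without labelled knockout 1 it was 0.14 ± 0.13 (adjusted p = 0.459), with the sign turned. Exons of Znrf3 cover 7.89 kb, longer than those of 82.1% of genes tested, and labelled knockout 1 is the library poor in long transcripts. Among the members, Apcdd1 and Lef1 have longer exons, at 95.8% and 86.7%, and labelled knockout 1 was not the lowest library for either. The part of transcript length in the value of Znrf3 was not tested.

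In the cytoplasm, Axin2 and Nkd1 were both lower in every labelled knockout library. Axin2 encodes a scaffold of the complex that destroys beta-catenin and is widely used as a readout of the pathway (chromosome 11, 108920349 to 108950783, plus strand). Its normalised counts were 534, 700 and 668 in labelled knockout 1 to 3 and 1125, 1153 and 1118 in wild type 1 to 3. Wild type libraries were close together, and the highest labelled knockout value was far below the lowest of them. Axin2 averaged 634.0 ± 88.1 in labelled knockout and 1132 ± 18.5 in wild type libraries (SD, n = 3 each). That gave -0.84 ± 0.15 as log2 fold change (95% interval -1.19 to -0.50; limma adjusted p = 0.0244). It was still called without labelled knockout 1 (-0.73, adjusted p = 0.00977) or 2 (-0.92, adjusted p = 0.0442). The call was lost without labelled knockout 3 (-0.89, adjusted p = 0.0945) and without wild type 1, 2 or 3 (-0.85, -0.83 and -0.85, adjusted p = 0.0999, 0.142 and 0.0714).

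Nkd1 encodes a protein that binds Dishevelled and limits the signal downstream of the receptors (chromosome 8, 88521354 to 88594884, plus strand). It had 298, 272 and 331 in labelled knockout 1 to 3 and 480, 386 and 480 in wild type 1 to 3. The groups did not overlap, and the log2 fold change of -0.57 ± 0.16 narrowly missed the threshold (95% interval -0.95 to -0.20; limma adjusted p = 0.0654). Without labelled knockout 1 the fold change of Nkd1 was again -0.57 and passed, at an adjusted p of 0.0490. Scaling by library totals also made it pass (-0.75, adjusted p = 0.0398), a scaling under which the median of all genes was -0.19 in place of -0.01. In 15 of 19 alternatives Nkd1 stayed uncalled, with limma adjusted p up to 0.209.

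**Figure D2:**
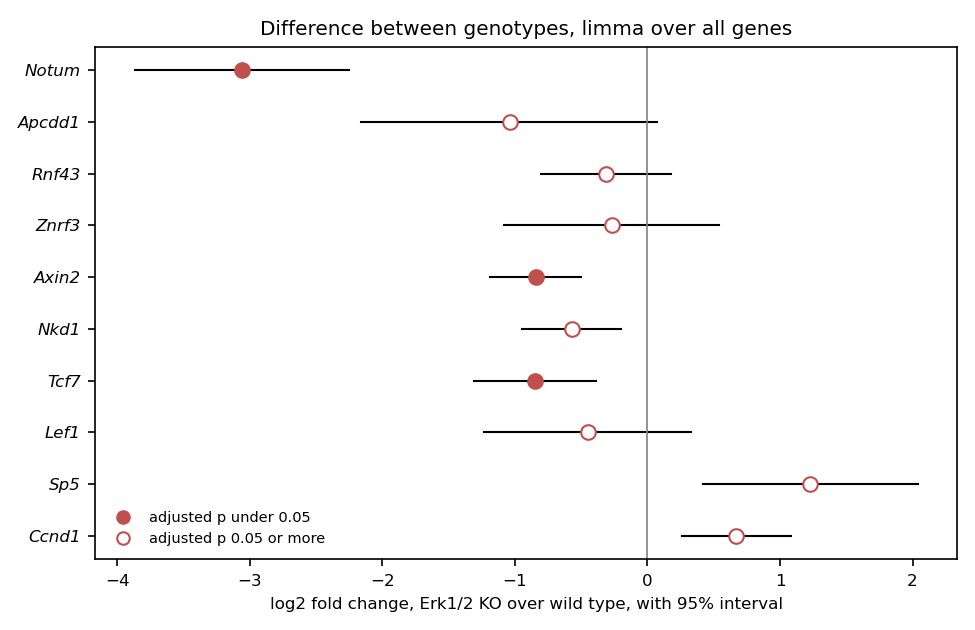
Log2 fold change of labelled knockout over wild type libraries (horizontal axis) for each gene, with 95% intervals from limma; filled points passed at an adjusted p under 0.05. Notum at -3.06, Axin2 at -0.84 and Tcf7 at -0.85 are filled, and the intervals of Sp5 and Ccnd1 lie above 0 although neither passed after adjustment.

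Of the 3 transcription factors, Tcf7 fell, Lef1 was barely expressed and Sp5 had a positive value. Tcf7 encodes TCF1, a DNA-binding partner of beta-catenin that T cells also make in abundance (chromosome 11, 52252371 to 52283014, minus strand). Its normalised counts were 70, 88 and 107 in labelled knockout 1 to 3 and 161, 159 and 153 in wild type 1 to 3. Wild type libraries were close together, and all lay above the labelled knockout libraries. Tcf7 had a log2 fold change of -0.85 ± 0.20 (95% interval -1.31 to -0.39; limma adjusted p = 0.0450), just inside the threshold. Its call was lost without labelled knockout 2 or 3 (-0.86 and -1.0, adjusted p = 0.0767 and 0.0945) and without wild type 1, 2 or 3 (-0.83, -0.84 and -0.87, adjusted p = 0.151, 0.193 and 0.107). It was also lost with sex as a covariate (-0.92, adjusted p = 0.0636) and with no filter on low values (-0.85, adjusted p = 0.0615).

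Lef1, which encodes another factor of that family, also made by lymphocytes (chromosome 3, 131110471 to 131224356, plus strand), had 10, 7 and 11 in labelled knockout 1 to 3 and 11, 15 and 13 in wild type 1 to 3. The groups touched at 11. At so low a level the log2 fold change of -0.45 ± 0.33 had a wide interval, -1.23 to 0.33 (limma adjusted p = 0.388), and a difference of the size of that of Tcf7 was not excluded by it.

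Sp5 encodes a zinc finger factor that beta-catenin induces directly (chromosome 2, 70474923 to 70477729, plus strand), and its promoter, shown above, was the only member window searched with TCF and LEF motifs. It had 306, 368 and 485 in labelled knockout 1 to 3 and 252, 164 and 102 in wild type 1 to 3. Every labelled knockout library lay above every wild type library. Sp5 averaged 386.3 ± 90.9 in labelled knockout and 172.7 ± 75.4 in wild type libraries (SD, n = 3 each). Its difference of 1.23 ± 0.34 on the log2 scale did not pass (95% interval 0.42 to 2.04; limma adjusted p = 0.0681). It passed without labelled knockout 1 (1.38, adjusted p = 0.0444) and without both libraries of low segment score (1.05, adjusted p = 0.0200). In 15 of 19 alternatives Sp5 stayed uncalled, with limma adjusted p up to 0.221, and its log2 fold change went down to 0.90.

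Ccnd1 encodes cyclin D1, which drives cells from rest into the division cycle and is a target of both Wnt and ERK signalling (chromosome 7, 144929931 to 144939925, minus strand). It had 1307, 1152 and 934 in labelled knockout 1 to 3 and 680, 643 and 799 in wild type 1 to 3. All labelled knockout values exceeded all wild type values, and the log2 fold change of 0.67 ± 0.17 missed the threshold (95% interval 0.26 to 1.08; limma adjusted p = 0.0574). Without labelled knockout 1 the log2 fold change of Ccnd1 was 0.56 and passed at an adjusted p of 0.0455. In 15 of 19 alternatives Ccnd1 stayed uncalled, with limma adjusted p up to 0.23. Exons of Ccnd1 share 1100 bases with a gene on the opposite strand, listed as Oraov1, which had 508, 331 and 320 in labelled knockout 1 to 3 and 402, 369 and 463 in wild type 1 to 3. The sources used here do not state whether counting used strand, so how reads of the shared bases were counted is not known. Notum, Axin2 and Lef1 also share exon bases (708, 209 and 1208) with genes of the opposite strand in the annotation.

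The ratio of Sp5 to Axin2 sets these opposite signs side by side within each library. It was 0.573, 0.526 and 0.726 in labelled knockout 1 to 3 and 0.224, 0.142 and 0.0912 in wild type 1 to 3, ratios of normalised counts not corrected for length. Scaling cancels in such a ratio, and its direction follows from the values of both genes given above. That of Ccnd1 to Axin2 was 2.45, 1.65 and 1.40 in labelled knockout 1 to 3 and 0.604, 0.558 and 0.715 in wild type 1 to 3. For Rnf43 to Axin2 the ratio was 1.12, 1.19 and 1.26 in labelled knockout 1 to 3 and 1.0, 0.814 and 0.677 in wild type 1 to 3. Rnf43 itself overlapped between genotypes. Since Axin2 was apart on its own, a ratio to it can be apart without any change in the other gene. These ratios were chosen after the values of the genes were seen.

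Leaving out labelled knockout 1 raised the number of members called. That library was poor in long transcripts, and was also the only male and the only library of low segment score in its group. In the fit without it, 6 members were called, Notum, Axin2, Tcf7 and Nkd1 lower and Sp5 and Ccnd1 higher, where 20.6% of 14525 genes tested were called. Its labelled knockout libraries were all female, and the part of each trait in the shift was not tested. With the segment score as a covariate 8 were called, those 6 with Rnf43 (-0.36, adjusted p = 0.0469) and Apcdd1 (-0.92, adjusted p = 0.0363) lower, where 30.6% of all genes tested were called. Without both libraries of low segment score, 6 members passed, among them Apcdd1 and not Nkd1, with 26.4% of genes called. That fit sets female labelled knockout against male wild type libraries, so its calls cannot be told apart from a difference by sex. With sex as a covariate, Notum (-2.89, adjusted p = 0.0292) and Axin2 (-0.90, adjusted p = 0.0448) were called, where 3.13% of all genes were. At a threshold of 0.1, 6 members passed, beside 19.4% of all genes. With the replicate number as a block, limma called 0 members, beside 0.436% of all genes; 6 members and 24.9% of all genes had an unadjusted p under 0.05. Without labelled knockout 3, limma called 0 members and 0.192% of all genes, and 6 members and 23.2% of all genes had an unadjusted p under 0.05. Without wild type 2 it called 0 members and 0.395% of all genes, and 7 members and 18.3% of all genes had an unadjusted p under 0.05. Notum was the 1 member called without wild type 1, beside 0.541% of all genes, and without wild type 3, beside 2.67%.

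**Figure D3:**
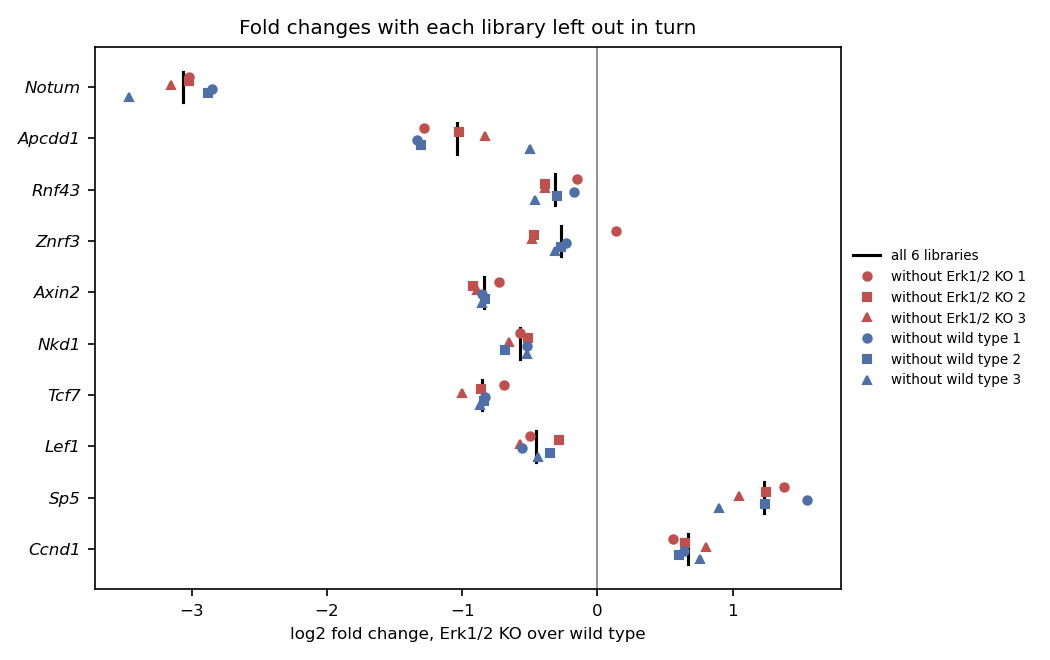
Log2 fold change (horizontal axis) of each gene with all 6 libraries (black line) and with each library left out in turn (points). Of the 10 genes, Znrf3 is the one with points on both sides of 0, at 0.14 without labelled knockout 1 and between -0.48 and -0.23 without another library.

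The same differences were compared within each sex and within each class of segment score, and are given as values. The high class is the set without both libraries of low segment score, whose fit is given above, and the other classes were not fitted. The high class sets female labelled knockout against male wild type libraries, and the low class male against female. Among females, labelled knockout libraries of high score meet a wild type library of low score, and among males the reverse holds. Neither split therefore separates genotype from the other trait. Notum had log2 differences, labelled knockout minus wild type, of -2.23 among females and -3.55 among males, and of -3.42 at high and -2.36 at low segment score. For Axin2 they were -0.71 and -1.09 by sex and -0.74 and -1.06 by segment score in the same order. Tcf7 gave -0.65, -1.18, -0.72 and -1.12. Sp5 was positive in all 4 subsets, from 0.59 among males to 2.04 among females, as was Ccnd1, from 0.38 among females to 0.98 among males. The genotypes did not overlap for Notum, Axin2, Tcf7, Sp5 and Ccnd1, so no other sign was possible in any subset. Rnf43 and Znrf3 had positive differences among females, 0.14 and 0.21, and negative ones among males, -0.78 and -1.13. Apcdd1 was at -2.36 among females, where wild type 3 is the lone wild type library, and at -0.03 among males.

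Levels were put in order per kilobase of exon, since long genes gather more reads. In the labelled knockout libraries Ccnd1 was highest, with a mean normalised count of 240.2 ± 39.8 per kb, followed by Sp5 with 184.0 ± 43.3, Rnf43 with 115.4 ± 20.9 and Axin2 with 115.1 ± 16.0. Below them lay Nkd1, Tcf7, Znrf3, Notum and Apcdd1, and Lef1 was last with 1.06 ± 0.237 per kb. In wild type libraries Axin2 led with 205.6 ± 3.36 per kb, before Ccnd1 with 150.2 ± 17.3, Rnf43 with 143.3 ± 28.1 and Notum with 118.1 ± 47.4 (SD, n = 3 each). Then came Nkd1, Sp5, Tcf7, Apcdd1 and Znrf3, and Lef1 was again last with 1.48 ± 0.228 per kb. Notum thus ranked 8 in labelled knockout libraries, where it had 12.9 ± 1.44 per kb, and 4 in wild type, while Sp5 ranked 2 in labelled knockout and 6 in wild type libraries. The ranges of these neighbours overlapped in labelled knockout libraries: Ccnd1 with Sp5, Rnf43 with Axin2, Znrf3 with Notum and Notum with Apcdd1. Wild type ranges overlapped between all neighbours from Ccnd1 down to Tcf7 and between Apcdd1 and Znrf3.

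**Figure D4:**
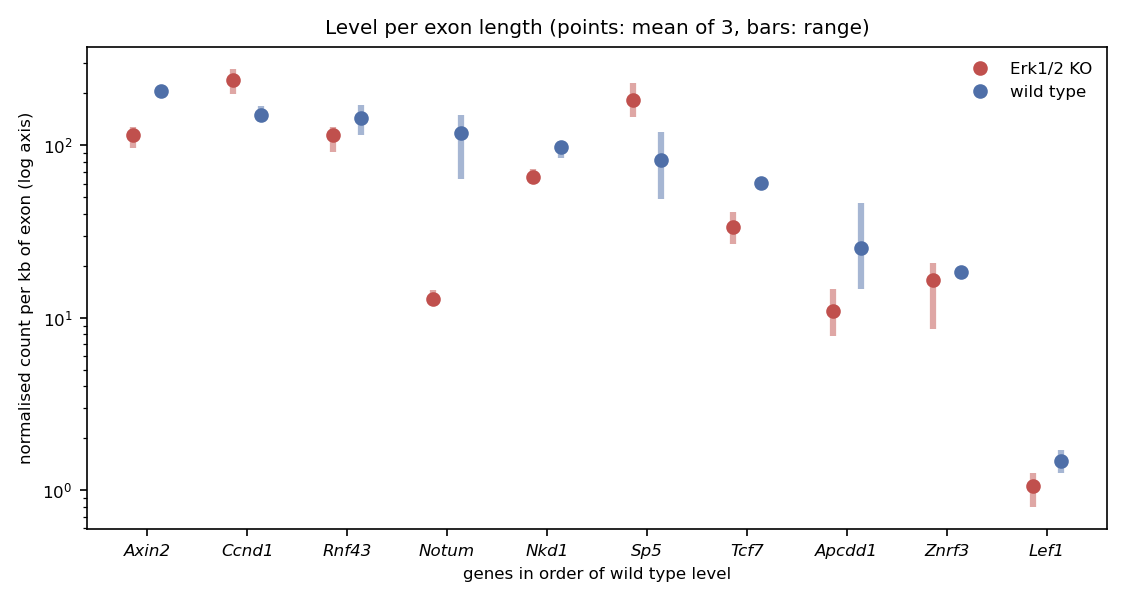
Normalised count per kb of exon (log axis) for the 10 genes in order of wild type level; points are means of 3 libraries and bars their range, labelled knockout (red) left of wild type (blue). Axin2 leads in wild type at 205.6 per kb and Ccnd1 in labelled knockout libraries at 240.2, and Lef1 is lowest in both.

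Genes whose log2 values ran most like those of Notum over the 6 libraries, among 10639 tested genes with a mean of at least 100, were Slc44a2, Csf1 and Fgd2, with Pearson r of 0.9946, 0.9945 and 0.9943. Slc44a2, which encodes a choline transporter-like protein, had 257, 255 and 266 in labelled knockout 1 to 3 and 449, 410 and 355 in wild type 1 to 3. For Axin2 they were Gbp9, Syne1 and Tgs1, with r of 0.9996, 0.9983 and 0.9967. Syne1, which encodes a giant protein of the nuclear envelope, had 269, 452 and 376 in labelled knockout 1 to 3 and 988, 1071 and 1002 in wild type 1 to 3. All points share the same 6 libraries, which fall into 2 genotype groups, so these values are descriptions.

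Other Wnt pathway genes mostly did not pass. Of 82 listed genes outside the members, 75 were tested and 4 were called, 2 higher and 2 lower, with a median log2 fold change of -0.12 against -0.01 over all genes tested. The 4 called were 5.33% of those tested, beside 8.79% of all genes, a difference that was not tested; without labelled knockout 1 it was 26.7% beside 20.6%, and with scaling by library totals 9.33% beside 9.56%. Among 19 further target genes tested, Tnfrsf19, which encodes the crypt receptor TROY, fell, and Mmp7, a Paneth cell protease, rose. Tnfrsf19 had normalised counts of 30, 31 and 25 in labelled knockout 1 to 3 and 71, 80 and 91 in wild type 1 to 3, which is -1.46 ± 0.21 in log2 (limma adjusted p = 0.0172). Mmp7 had 1133, 651 and 624 in labelled knockout 1 to 3 and 61, 52 and 227 in wild type 1 to 3, which is 3.09 ± 0.56 in log2 (limma adjusted p = 0.0263). Mmp7 lost its call without labelled knockout 2 or 3 (3.21 and 3.24, adjusted p = 0.0557 and 0.0947), without wild type 1 or 2 (2.81 and 2.70, adjusted p = 0.0999 and 0.133) and with sex as a covariate (2.90, adjusted p = 0.0577), and without wild type 3 it was 3.75 (adjusted p = 0.0122). Tnfrsf19 lost its call without labelled knockout 3 (-1.37, adjusted p = 0.0778) and without wild type 1, 2 or 3 (-1.55, -1.46 and -1.37, adjusted p = 0.0687, 0.109 and 0.0511). The 2 most abundant targets not called were Jun, an AP-1 subunit (-0.40 ± 0.20), and Ephb2, a receptor that sorts crypt cells (-0.33 ± 0.15). Jun passed without labelled knockout 1 (-0.57, adjusted p = 0.0484), and Ephb2 without both libraries of low segment score (-0.39, adjusted p = 0.0396).

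Among 16 receptors and co-receptors tested, Fzd10, a Frizzled receptor of low abundance, was called lower, with 2, 6 and 2 in labelled knockout 1 to 3 and 27, 17 and 22 in wild type 1 to 3. It reached the filter on low values through wild type libraries alone, so a lower value was the only result it could give. Its log2 fold change was -2.51 ± 0.46 (limma adjusted p = 0.0267) and depended on the pseudocount, with -2.69 at 0.5 and -1.71 at 5. The call was lost without labelled knockout 3 (-2.30, adjusted p = 0.105) and with sex as a covariate (-2.62, adjusted p = 0.0521), and with any wild type library left out Fzd10 no longer passed the filter on low values. The abundant Lrp5, a Wnt co-receptor, and Fzd5, the main Frizzled receptor of Paneth cells, had 0.19 ± 0.15 and 0.29 ± 0.35 and did not pass. Without labelled knockout 1, Fzd5 was 0.72 and passed (adjusted p = 0.0191), as it did at 0.64 (adjusted p = 0.0130) without both libraries of low segment score. In the list of 11 tested inhibitors of Wnt binding, Kremen2, a membrane receptor that works with DKK inhibitors, rose: it had 250, 159 and 172 in labelled knockout 1 to 3 and 88, 83 and 74 in wild type 1 to 3 (log2 fold change 1.21 ± 0.21; limma adjusted p = 0.0253). Its call was lost without labelled knockout 3 (1.28, adjusted p = 0.0945) and without wild type 1, 2 or 3 (1.27, 1.22 and 1.14, adjusted p = 0.0916, 0.134 and 0.0731). Igfbp4 and Sfrp1, secreted inhibitors, were the most abundant uncalled genes of that list, at 0.23 ± 0.18 and 0.46 ± 0.29, and Sfrp1 passed at 0.82 (adjusted p = 0.0100) without labelled knockout 1. None of 17 genes of the destruction complex and Dishevelled group was called by limma (3 had an unadjusted p under 0.05, beside 30.3% of all genes tested). Csnk1d (0.12 ± 0.13) and Ppp2r1a (0.46 ± 0.14) were the most abundant. None of 16 nuclear partners was called by limma either (3 had an unadjusted p under 0.05). Ctnnb1, which encodes beta-catenin itself, had 17205, 19950 and 15651 in labelled knockout 1 to 3 and 16274, 18440 and 20613 in wild type 1 to 3, a log2 fold change of -0.07 ± 0.18 (95% interval -0.49 to 0.35; limma adjusted p = 0.819), and Ctbp1, a co-repressor, had 0.32 ± 0.17.

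**Figure D5:**
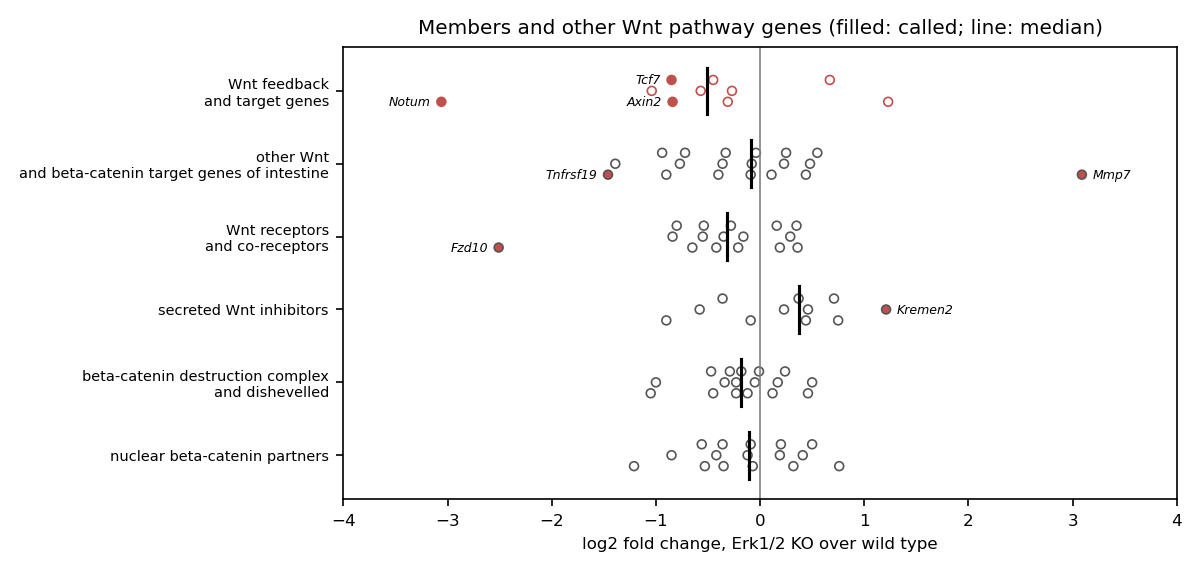
Log2 fold change of labelled knockout over wild type libraries (horizontal axis) for the 10 members (top row) and the tested genes of 5 Wnt pathway lists; each point is a gene, filled points were called and black lines are list medians. The members' median is -0.51, and the lists hold 4 called genes, Mmp7, Tnfrsf19, Fzd10 and Kremen2.

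Markers of several cell types moved with the genotype labels. Over all genes tested, 3.94% were called lower and 4.85% higher, and 30.3% had an unadjusted p under 0.05 in limma. Of 9 tested B cell markers 8 were called lower. Of these 8, Ms4a1, Cr2 and Fcer2a reached the filter through wild type libraries alone and could give no other result. Summed over the B cell list, normalised counts were 140 to 203 in labelled knockout and 490 to 689 in wild type libraries. T cells also make Tcf7 in abundance. None of 13 tested T cell markers was called by limma (2 had an unadjusted p under 0.05), with sums of 803 to 989 in labelled knockout and 999 to 1058 in wild type libraries. Of these 13, 9 had a negative and 4 a positive log2 fold change, with a median of -0.43, and Cd6 reached the filter through wild type libraries alone. Stem cell markers other than the members among them, Lgr5, Ascl2, Olfm4 and Smoc2, were not called, and their signs differed. Lgr5, a receptor of crypt base stem cells, had 94, 165 and 140 in labelled knockout 1 to 3 and 238, 192 and 215 in wild type 1 to 3 (-0.72 ± 0.23, limma adjusted p = 0.0959). Smoc2 went the other way (0.48 ± 0.18, limma adjusted p = 0.127), and Ascl2 and Olfm4 were at -0.08 ± 0.23 and -0.29 ± 0.19.

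Of 10 tested fibroblast markers limma called none (4 had an unadjusted p under 0.05, beside 30.3% of all genes tested). Their sums were 32321 to 49655 in labelled knockout and 44740 to 62589 in wild type libraries. Endothelial markers had 3 of 6 called lower, beside 3.94% of all genes tested. Their sums were 2352 to 2683 in labelled knockout and 4138 to 4675 in wild type libraries. Paneth cell markers had 3 of 5 tested called higher, beside 4.85% of all genes tested. Their sums were 13658 to 21686 in labelled knockout and 2224 to 9515 in wild type libraries, and wild type 3 was the highest of its group. Proliferation markers had 4 of 10 called higher, beside the same 4.85%. Their sums were 8395 to 10262 in labelled knockout and 6771 to 7181 in wild type libraries, in the same direction as Ccnd1. Smooth muscle and enteric nerve lists had 0 of 6 and 0 of 7 called by limma (1 and 2 had an unadjusted p under 0.05), with sums of 27302 to 38680 in labelled knockout and 35050 to 50521 in wild type libraries for muscle and of 429 to 635 in labelled knockout and 755 to 836 in wild type libraries for nerve, where all 7 log2 fold changes were negative. Epithelial markers had 2 of 11 called higher and 1 lower, with 10 of 11 log2 fold changes positive and sums of 271565 to 316049 in labelled knockout and 202958 to 214915 in wild type libraries. No marker of these lists was at 0 in all 6 libraries. The part of these cell types in the members' values was not tested.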

How the data were processed

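Per the labels' protocols, RNA came from flash-frozen small intestine by Trizol, and libraries were made from polyA RNA with the Illumina TruSeq kit. Per the submitters' processing notes, TopHat2 2.1.0, HTSeq 0.6.0, DESeq2 and build mm10 were used; for annotation, strand setting and multiply mapped reads, the setting is not given in the sources used here. The deposited values are whole-number scores per gene symbol that are not raw counts: median-ratio factors were 1.0054 to 1.0088 in all libraries, and whole numbers below 30 were missing in 3 of them. They are taken to be rounded counts after division by a size factor, and are called normalised counts. Their sums were 14825845 to 17153570 in labelled knockout and 13641468 to 14094100 in wild type libraries. Reads per library are not known from the files alone, so no counting intervals are given.

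Log2(normalised count + 1) was kept where 3 or more libraries reached 10 and was tested with limma 3.58.1 (R 4.3.3, intensity trend, genotype as the only term, two-sided, Benjamini-Hochberg over 14686 genes, threshold 0.05), and the code was checked on simulated data. Fold changes are on this scale and understate those of low genes such as Lef1. Positions and exon lengths come from GENCODE vM21 (GRCm38). All 10 members are described, with, in each list of other Wnt genes, every called gene and the 2 most abundant others; genes alike in pattern were taken by Pearson r. A further gene of the label check is not reported here. Members, lists and tests were chosen with earlier results of these data known. The segment score used Gata4, Onecut2, Cybrd1 and Slc40a1 against the 4 tested ileal genes. Alternatives changed scaling, pseudocount, filter, trend, threshold, covariates, replicate block and libraries.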

Additional observations from a re-analysis of the deposited data

How the results depend on the processing

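The direction of 9 of the 10 members was the same in every alternative run that tested them. Much of this was fixed in advance. For the members whose genotypes did not overlap (5 lower, 2 higher), leaving out libraries could not change the sign. Settings of filter, trend, replicate block and threshold leave the log2 fold change as it was. Znrf3, at -0.48 to -0.23 when any other library was left out, turned to 0.14 without labelled knockout 1 and to 0.11 without both libraries of low segment score. Uncalled genes near 0 also turned: Mapk3 to -0.09 under library totals, -0.25 without both libraries of low segment score, and -0.10 to 0.22 with 1 library left out (-0.06 without labelled knockout 1, -0.10 without wild type 3), Csnk1d to -0.05 under library totals, Igfbp4 to -0.02 and Ctnnb1 to 0.03 without both libraries of low segment score, and Ctnnb1 to 0.01 and 0.02 without labelled knockout 3 and wild type 3. The count of members called (3) was within 1.5 times under upper-quartile and trimmed-mean scaling, library totals, pseudocounts of 0.5 and 5, both other filters, no trend and the sex covariate, which was added after seeing the data; Tcf7 lost its call with no filter and with the sex covariate. It was 8 with the segment score as a covariate, 6 without both libraries of low segment score and 6 at a threshold of 0.1, and from 0 to 6 with 1 library left out. The 4 other Wnt genes called became 7 under library totals, 22 with the segment covariate, 17 without both libraries of low segment score, 13 at a threshold of 0.1 and from 0 to 20 with 1 library left out. Over all genes, 1291 calls became 4488, 3762, 2847 and, with sex as a covariate, 459, and from 28 to 2998 with 1 library left out. With the replicate block, limma called 0 members (6 had an unadjusted p under 0.05), 0 other Wnt genes (17 had) and 64 genes over all (24.9% had). Same-numbered libraries deviated from their group means with correlations of -0.37, 0.30 and -0.16. Deviations within a group of 3 sum to 0, so these values cannot settle whether the numbers pair the libraries. In fits with 1 library left out of a group, the spread is shared between groups. The cause was not tested for any of these shifts. Lef1 had low values, 7 to 15 normalised counts, and was not tested with the filter at 50.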
